A study of Mus musculus with 14 samples.

Results

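The 9 genes described here encode secreted CC chemokines, small proteins that draw leukocytes bearing matching receptors into tissue. They were taken by gene name from the 54347 genes counted in mouse lung, and each of the 9 occurred once and passed the low-count filter in every comparison below. By role they were the eotaxins Ccl11 and Ccl24, the CCR4 ligands Ccl17 and Ccl22, and the CCR8 ligand Ccl8. The others were the monocyte attractants Ccl7 and Ccl2 and the CCR1 ligands Ccl9 and Ccl6.

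Lung RNA came from C57BL/6 mice in 6 groups, all given an intranasal extract of the mould Alternaria alternata on 4 days, at 2 mg in 40 µl each time, so there was no group without allergen. Per the labels, 10000000 live wild-type (WT) bone marrow cells were given within 24 h to irradiated recipients, of which 2 were WT and 2 bore a human JAK1 gain-of-function allele (GOF). JAK1 is a kinase that relays signals of many cytokine receptors; the promoter and cell types of the GOF allele and the share of host leukocytes left after irradiation are not stated in the sources used here. Mice without a transplant received resiniferatoxin (RTX), which kills sensory neurons that express TRPV1, the ion channel it opens. The intrathecal dose was 25 ng per mouse on each of 2 days (n = 3), against 10 µl saline (n = 2), and the series describes it as removing spinal visceral afferents. The subcutaneous doses were 30, 70 and 100 µg/kg on 3 days (n = 3), against 100 µl saline (n = 2), described as removing vagal and spinal afferents. The title of the series sets the question of what sensory neurons do for immune balance in the lung.

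Eotaxins bind CCR3, the main chemokine receptor of eosinophils, and in allergic lung they come from macrophages, fibroblasts and epithelium. Ccl17 and Ccl22 are products of dendritic cells and macrophages that attract CCR4-bearing T helper cells. Interleukin 4 and interleukin 13 induce several of these genes through STAT6, whereas Ccl2 and Ccl7 are typical targets of NF-kB.

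Libraries held 18198872 to 24393000 counts, and lung markers such as Sftpc and Scgb1a1 were present in all 14. Values per library are shares of its total count, in CPM (1 CPM is 1 count in 1000000), 3 counts corresponding to 0.123 to 0.165 CPM, and fold changes are log2 values of edgeR's quasi-likelihood fit. Earlier results of these data had split the libraries into 3 states by trace transcripts: A, with over 2 CPM of Rps3a2; B, with over 2 CPM of Hmga2 and not of Rps3a2; and C, with neither. WT recipient 1 was in state A and the other 3 transplanted libraries in B. Both intrathecal saline libraries were in A and all 3 RTX libraries in B, so state and treatment cannot be told apart there. In the subcutaneous experiment the saline libraries were in B and C and the RTX libraries in C, A and A. Whether each library is another mouse is not in the labels, so the p-values cover only the spread among these libraries, which may be technical.

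On GRCm38 6 of the genes lie on chromosome 11, Ccl24 on chromosome 5 and the CCR4 ligands on chromosome 8. Ccl2 (chr11:82035571-82037453), Ccl7 (chr11:82045712-82047525), Ccl11 (chr11:82057823-82062955) and Ccl8 (chr11:82115185-82116799) follow one another on the plus strand, 8.3, 10.3 and 52.2 kb apart. Ccl9 (chr11:83572919-83578636) and Ccl6 (chr11:83587882-83593087) are neighbours on the minus strand, 9.2 kb apart. Ccl22 (chr8:94745590-94751699) and Ccl17 (chr8:94810453-94812036) lie 58.8 kb apart on the plus strand, and Ccl24 stands alone (chr5:135569937-135573049, minus strand). Ccl2 overlaps Gm17268 and Ccl6 overlaps E230016K23Rik on the opposite strand, and the strand setting of the counting was not given in the sources used here, so their reads may not be told apart. Of the stretches of 31 bases in Ccl9, 3.98% also occur in other genes, and 1.02% of those in Ccl6 occur in Slc17a4. For each of the other 7 genes the share was under 0.1%.

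RefSeq promoters (GRCm38.p6, the 250 bases before the start) were matched for 5 of the 9 genes: Ccl17, Ccl22, Ccl8, Ccl9 and Ccl6. Ccl11, Ccl24, Ccl7 and Ccl2 had no entry. The sequence of Ccl17 is shown because its values departed from those of its neighbour Ccl22, and those of Ccl8 and Ccl9 because both genes fell in GOF recipients. They are written 5′ to 3′ on the strand of the gene, with motif matches in capitals.
Ccl17 (chr8:94810203-94810452, plus strand): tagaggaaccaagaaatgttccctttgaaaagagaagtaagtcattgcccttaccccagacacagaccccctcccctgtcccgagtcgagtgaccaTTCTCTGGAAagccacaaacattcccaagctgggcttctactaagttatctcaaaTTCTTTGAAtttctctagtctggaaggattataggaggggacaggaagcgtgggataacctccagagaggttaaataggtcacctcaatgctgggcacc
Ccl8 (chr11:82114935-82115184, plus strand): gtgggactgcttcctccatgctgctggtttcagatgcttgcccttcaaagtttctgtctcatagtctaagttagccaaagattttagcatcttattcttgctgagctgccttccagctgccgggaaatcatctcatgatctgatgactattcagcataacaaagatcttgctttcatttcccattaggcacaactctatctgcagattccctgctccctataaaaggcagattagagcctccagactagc
Ccl9 (chr11:83578637-83578886, minus strand): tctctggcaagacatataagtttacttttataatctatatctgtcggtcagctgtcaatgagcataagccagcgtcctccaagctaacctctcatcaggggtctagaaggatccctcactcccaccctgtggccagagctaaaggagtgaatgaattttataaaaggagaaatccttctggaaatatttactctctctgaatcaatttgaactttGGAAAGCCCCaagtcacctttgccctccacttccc
Both strands were searched for TTC and GAA with any 4 bases between them, the spacing STAT6 prefers, for the same arms with any 3 bases between them, the spacing of other STATs, and for the NF-kB consensus. Ccl17 held 1 match to the first (TTCTCTGGAA, bases 154 to 145 before the start) and 1 to the second (TTCTTTGAA, bases 99 to 91). Of 32851 promoters of this length, 5.85% held the first, 7.02% the second and 0.469% both. Ccl9 held 1 NF-kB match on the opposite strand (GGAAAGCCCC, bases 35 to 26), which 7.25% of promoters held. None of the 3 patterns occurred in the windows of Ccl8, Ccl22 or Ccl6. The RefSeq start of Ccl22 lies downstream of the annotated gene start, so its window holds transcribed bases and is not printed.

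The eotaxins, the CCR4 ligands, Ccl7 and Ccl2 were lower in all 4 transplanted lungs than in any of the 10 others. Of 14340 genes with a mean of at least 2 CPM, 9.46% were placed this way. Ccl24 was at 3.00 to 27.3 CPM after transplant and at 131 to 452 CPM elsewhere. Ccl11 was at 6.76 to 30.0 CPM against 117 to 198 CPM. For Ccl17 the ranges were 5.82 to 27.5 and 53.0 to 128 CPM, for Ccl22 15.6 to 49.0 and 77.2 to 224 CPM, for Ccl7 5.33 to 12.1 and 27.3 to 47.3 CPM, and for Ccl2 7.43 to 17.8 and 18.8 to 36.3 CPM. Ranges of Ccl8, Ccl9 and Ccl6 overlapped.

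The gap was already there between the controls, which carried neither the GOF allele nor RTX. The mean over the 4 saline libraries was 12.4 times that of the 2 WT recipients for Ccl24 and 6.86 times for Ccl11, ranks 12 and 22 among the 14340 genes. Only 31 of these genes (0.216%) had a ratio of at least 5, and their median ratio was 0.974. The ratio was 4.65 for Ccl17, 3.68 for Ccl7, 2.48 for Ccl22, 1.64 for Ccl2, 1.32 for Ccl9, 1.17 for Ccl8 and 1.12 for Ccl6. Irradiation, marrow transplant and experiment differ together between these controls and cannot be told apart. Eosinophil markers summed to 75.5 to 123 CPM in WT recipients and 169 to 302 CPM in saline libraries, and alveolar macrophage markers to 1221 to 1798 and 2572 to 4080 CPM. Neutrophil markers lay the other way, at 306 to 361 CPM in WT recipients and 81.9 to 144 CPM in saline libraries. The alveolar macrophage list holds Chil3, also counted below among the STAT6 response genes. Single markers were not compared between these controls. The part of these cells in the gap was not tested, and in bulk tissue fewer cells of a type cannot be told apart from less RNA per cell.

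**Figure D1:**
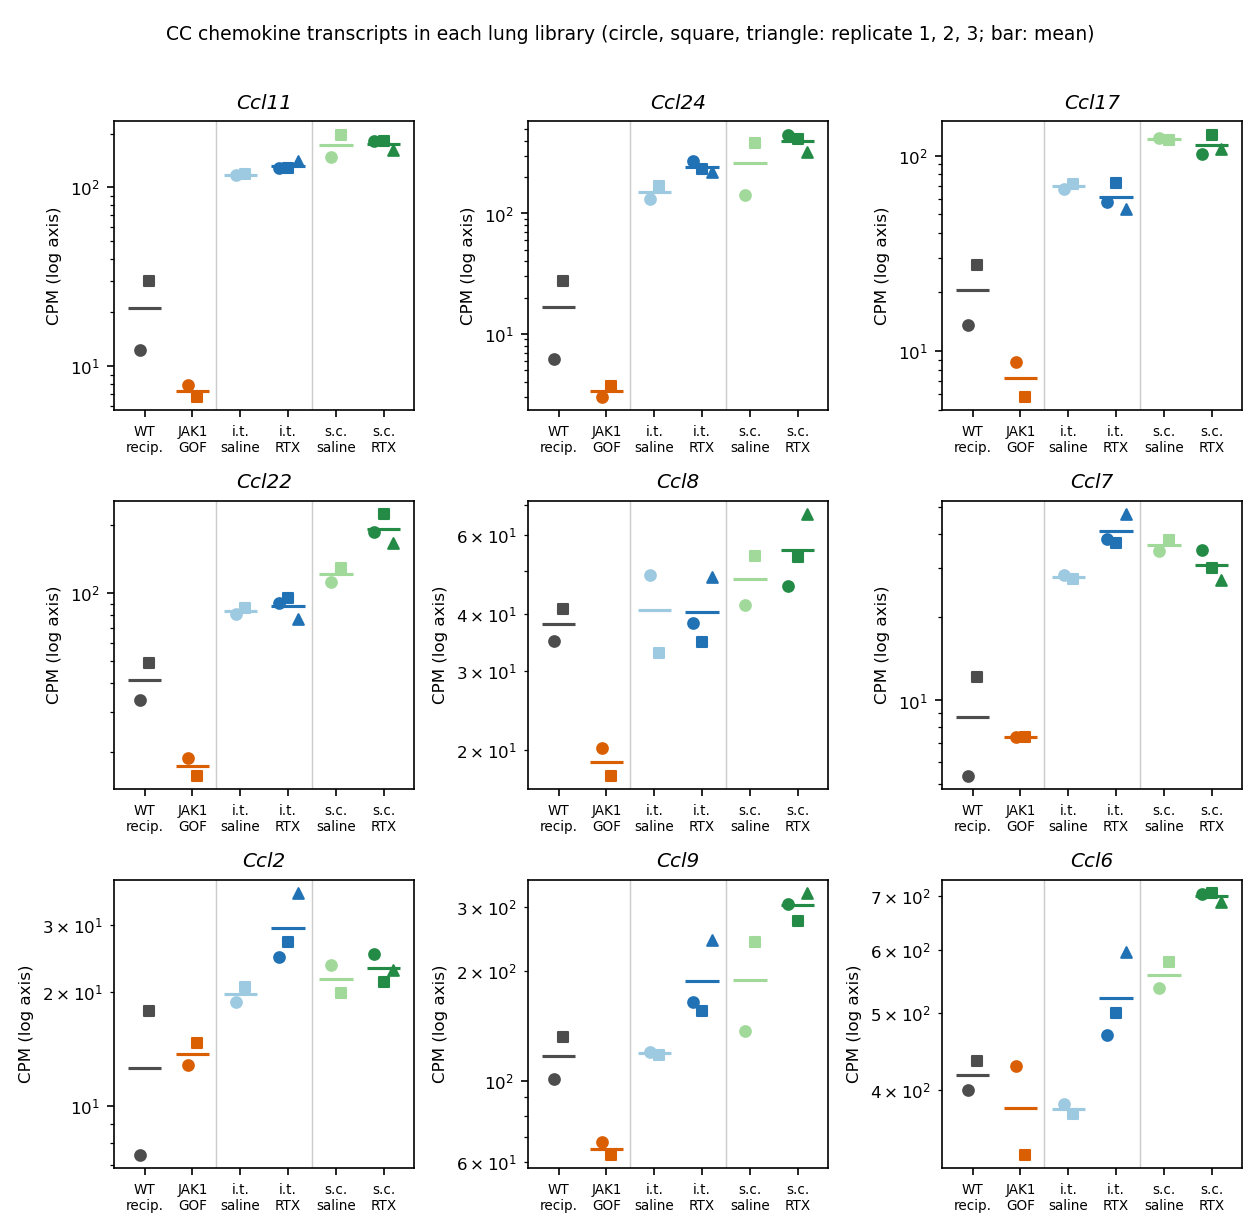
CPM (log axis) of the 9 chemokine genes in each of 14 lung libraries, by group; circle, square and triangle are replicates 1, 2 and 3 and bars are group means. Both transplanted groups lie under the other 4 in the panels of Ccl11, Ccl24, Ccl17, Ccl22, Ccl7 and Ccl2, while Ccl6 spans only 331 to 707 CPM.

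Among the 4 groups without a transplant, every subcutaneous library lay above every intrathecal one for Ccl11, at 147 to 198 against 117 to 140 CPM, and for Ccl17, at 102 to 128 against 53.0 to 72.1 CPM. The same held for Ccl22, at 113 to 224 against 77.2 to 95.1 CPM. For the other members these ranges overlapped. The share of all genes placed this way was not computed. Route and experiment differ together between these libraries and cannot be told apart. Neighbours in the order of group means were apart for Ccl11 except the subcutaneous pair, and for Ccl22 except the intrathecal pair. For Ccl8 the 5 groups other than GOF recipients had means of 38.0 to 55.6 CPM, and each overlapped its neighbour in the order, although both subcutaneous groups lay wholly above WT recipients. Ccl7 and Ccl2 had their highest mean after intrathecal RTX, 40.9 and 29.3 CPM, and that group's range overlapped the next in both.

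Per kilobase of exon, Ccl6 was the most abundant in each group, from 211 CPM per kb with intrathecal saline to 390 CPM per kb after subcutaneous RTX. Ccl24 was the lowest of the 9 in GOF recipients, at 2.58 CPM per kb, and second to Ccl6 after subcutaneous RTX, at 307 CPM per kb. Ccl2 was the lowest in the 4 groups without a transplant and in WT recipients exceeded only Ccl7, at 11.1 against 10.9 CPM per kb.

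In GOF recipients 3 of the 9 genes fell and none rose. Ccl22 fell by 1.26 on the log2 scale, Ccl8 fell by 1.00 and Ccl9 fell by 0.83, while the eotaxins and Ccl17 had larger differences that did not pass. At an adjusted p under 0.05, 0.717% of all genes were called, 0.543% as lower. Values of 8 of the 9 were below 0 (49.9% of all genes). Their median was that of Ccl8, against 0.00045 over all genes, and 5 of the 9 were lower at an unadjusted p under 0.05 (6.94% of all genes). Groups did not overlap, lower in GOF, for 6 of the 9, where 23.0% of all genes did so.

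Ccl8 binds CCR8 in mice and is made by macrophages in allergic inflammation. It was at 34.9 and 41.2 CPM in WT recipients against 20.2 and 17.5 CPM in GOF recipients. The groups were apart, and Ccl8 fell by 1.00 ± 0.15 (SE; edgeR adjusted p = 0.0181). This call held whichever library was left out (adjusted p up to 0.0338) but not in fits of all 14 libraries, where the adjusted p reached 0.202.

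Ccl22, a ligand of CCR4, was at 33.6 and 49.0 CPM in WT recipients against 18.8 and 15.6 CPM in GOF recipients. It fell by 1.26 ± 0.19 (edgeR adjusted p = 0.0267). Ccl9 was at 101 and 132 against 67.7 and 62.4 CPM and fell by 0.83 ± 0.15 (edgeR adjusted p = 0.0351). Both groups of both genes were apart, and each call was lost when either GOF recipient was left out (adjusted p up to 0.144 for Ccl22 and 0.111 for Ccl9). The Ccl9 call was also lost in both fits of all 14 libraries (adjusted p up to 0.287).

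For the eotaxins and Ccl17 the WT recipients differed from each other by more than 2-fold. Ccl24 was at 6.19 and 27.3 CPM in WT recipients against 3.00 and 3.68 CPM in GOF recipients, a log2 fold change of −2.33 ± 1.03 (edgeR adjusted p = 0.58). Ccl11 was at 12.3 and 30.0 against 7.84 and 6.76 CPM, −1.53 ± 0.51 (edgeR adjusted p = 0.398). Ccl17 was at 13.6 and 27.5 against 8.78 and 5.82 CPM, −1.48 ± 0.41 (edgeR adjusted p = 0.281). WT recipient 1, the only transplanted library in state A, was the lower of the WT pair for all 9 genes, yet above both GOF recipients for these 3.

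Within state B, that is without WT recipient 1, 919 genes were called in place of 124. This leaves 1 WT library, which is assumed to vary like the GOF pair, the only source of the spread. Ccl24 at −3.04, Ccl11 at −2.04, Ccl17 at −1.91 and Ccl7 at −0.73 were then called lower. Without WT recipient 2, under the same assumption, 303 genes were called, Ccl17 was called lower and Ccl2 higher, at 0.91. The DESeq2 test called Ccl17 besides the 3 genes called by edgeR, and voom called Ccl8 and neither Ccl22 nor Ccl9.

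Ccl7, Ccl2 and Ccl6 overlapped between the recipients. Ccl7, an attractant of monocytes and eosinophils, was at 5.33 and 12.1 CPM in WT recipients against 7.38 and 7.36 CPM in GOF recipients, −0.24 ± 0.37 (95% interval −1.10 to 0.62). Ccl2, the main ligand of the monocyte receptor CCR2, was at 7.43 and 17.8 against 12.8 and 14.6 CPM, 0.13 ± 0.44 (−1.03 to 1.28). Ccl6, a macrophage product, was at 399.9 and 435 against 429 and 331 CPM, −0.13 ± 0.17 (−0.49 to 0.24). The intervals for Ccl7 and Ccl2 reach past 2-fold in at least 1 direction.

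Among the chemokines' receptors, 1 of 9 genes passed in GOF recipients: Ccr2, the receptor of Ccl2 and Ccl7, fell by 1.02 ± 0.17 (edgeR adjusted p = 0.032; voom 0.051). The median of this list was −0.91, and Ccr3 was at −1.99 ± 0.56 (edgeR adjusted p = 0.249). Of the other CC chemokine genes 0 of 9 tested passed with edgeR, with 0 at an unadjusted p under 0.05. Of 6 tested type 2 signals and receptors, Il1rl1, a receptor chain for interleukin 33, fell by 1.39 ± 0.24 (edgeR adjusted p = 0.0267; voom 0.0797). Chil3, a chitinase-like macrophage protein, fell by 1.94 ± 0.22 (edgeR adjusted p = 0.00547) and was the only 1 of 8 STAT6 response genes to pass, though the list's median was −1.07 and all 8 were below 0. In the TNF, IL-1 and NF-kB list 0 of 8 passed and 2 were lower at an unadjusted p under 0.05. In the CXC list 0 of 10 passed with edgeR and 1 did so unadjusted, while DESeq2 called Cxcl9 at −1.51.

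Markers of several cell types differed between the recipients as well. Eosinophil markers were at 75.5 to 123 CPM in WT and 44.8 to 50.5 CPM in GOF recipients, with 7 of 7 tested below 0 and none passing. Epx, an eosinophil granule peroxidase, was at 0.143 and 0.191 CPM in WT recipients, near the floor of 3 counts, and at 0 in both GOF recipients. Conventional dendritic cell markers were at 142 to 152 against 101 to 104 CPM (2 of 8 fell). Those of group 2 innate lymphoid cells were at 131 to 138 against 88.9 to 93.6 CPM (3 of 6 fell). These 3 were Il7r, Icos and Il1rl1, the last also counted above among the type 2 signals and receptors. T cell markers were at 60.3 to 78.5 against 32.4 to 46.1 CPM (2 of 5 fell). Neutrophil markers were at 306 to 361 against 188 to 273 CPM (1 of 5 fell). Alveolar macrophage markers summed to 1221 to 1798 against 494 to 515 CPM, but 3 of the 6 tested were above 0 and 3 below, and the 1 that fell was Chil3, also counted among the STAT6 response genes. Lung markers were at 14695 to 17025 against 20132 to 21260 CPM, with 6 of 6 above 0 and none passing. Monocyte and interstitial macrophage markers were at 933 to 1150 against 799 to 811 CPM, and the 1 of 9 that fell was Ccr2, also counted above. Fibroblast markers were at 4479 to 5291 against 2932 to 4179 CPM, with 4 of 6 below 0 and none passing. Basophil and mast cell markers lay the other way, at 85.3 to 105 against 116 to 118 CPM, with 3 of 4 tested above 0 and none passing. Heart muscle markers were higher, at 231 to 328 against 463 to 508 CPM (4 of 6 rose). Xist, transcribed from the inactive X chromosome of females and named after its value was seen, was at −0.89 ± 0.13 (edgeR adjusted p = 0.0158). The part of these in the chemokine values was not tested.

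After intrathecal RTX none of the 9 genes passed, where 0.311% of all genes were called, and 8 of the 9 had values above 0 (51.5% of all genes). The median was 0.48 against 0.0075 over all genes. Groups did not overlap, higher with RTX, for 6 of the 9 (13.5% of all genes), and the same 6 had an unadjusted p under 0.05 (5.85% of all genes). They were the eotaxins, Ccl7, Ccl2, Ccl9 and Ccl6. The DESeq2 test called 247 of 17360 genes, where edgeR called 54, and 3 of these 6 were among them: Ccl24, Ccl7 and Ccl6. With voom 37 genes were called, and 0 of these 6.

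Ccl24 had the largest value. It was at 131 and 169 CPM with saline and at 275, 235 and 222 CPM with RTX, a log2 fold change of 0.72 ± 0.13 (95% interval 0.43 to 1.02; edgeR adjusted p = 0.0734). All 3 RTX libraries lay above both saline libraries, and the gene was called without saline library 2 (adjusted p = 0.022), a fit in which the lone saline library is assumed to vary like the RTX group. Ccl11 was at 117 and 119 against 129, 129 and 140 CPM, a smaller difference of 0.19 ± 0.08 (edgeR adjusted p = 0.408).

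The monocyte attractants Ccl7 and Ccl2 were apart between the groups, and Ccl8 was not. Ccl7 was at 28.4 and 27.5 CPM with saline and at 38.5, 36.9 and 47.3 CPM with RTX, 0.57 ± 0.12 (edgeR adjusted p = 0.108). Ccl2 was at 18.8 and 20.5 against 24.7, 27.0 and 36.3 CPM, 0.60 ± 0.17 (edgeR adjusted p = 0.247). RTX library 3 was the highest for both. Ccl8 was at 48.9 and 32.9 against 38.3, 34.8 and 48.4 CPM, with full overlap and a value of 0.01 ± 0.21 (95% interval −0.49 to 0.51).

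The CCR1 ligands, which attract myeloid cells, were apart between the groups and also highest in RTX library 3. Ccl9 was at 120 and 118 CPM with saline and at 164, 155 and 244 CPM with RTX, 0.68 ± 0.21 (edgeR adjusted p = 0.319). Ccl6 was at 385 and 373 against 469, 499 and 596 CPM, 0.48 ± 0.11 (edgeR adjusted p = 0.141). The CCR4 ligands overlapped. Ccl17 was at 67.6 and 71.3 against 58.1, 72.1 and 53.0 CPM, −0.17 ± 0.12 (edgeR adjusted p = 0.628). Ccl22 was at 81.0 and 86.1 against 90.5, 95.1 and 77.2 CPM, 0.08 ± 0.09 (edgeR adjusted p = 0.785).

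With state as a term in a fit of all 14 libraries, where other experiments supply the state effect, the intrathecal values were 0.04 for Ccl24, −0.43 for Ccl11, −0.17 for Ccl7, −0.35 for Ccl2, 0.70 for Ccl9 and 0.41 for Ccl6. Those of Ccl9 and Ccl6 were close to the values without the term, and those of the other 4 were not. In that fit the adjusted p was 1 for each of the 9.

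None of the receptor, type 2, STAT6, NF-kB, CXC or other CC genes passed with edgeR after intrathecal RTX. At an unadjusted p under 0.05 there were 2 of 9, 2 of 10, 2 of 8, 3 of 8, 3 of 10 and 0 of 10 of them, all higher. Il1b, an NF-kB target and inducer, was nearest at 0.68 ± 0.12 (edgeR adjusted p = 0.0506), and DESeq2 called it, Il33 (0.52) and Cxcl14 (0.56). Eosinophil markers summed to 169 to 174 CPM with saline and 175 to 205 CPM with RTX, alveolar macrophage markers to 2572 to 2694 and 2523 to 3878 CPM, and dendritic cell markers to 188 to 192 and 170 to 194 CPM. Neutrophil markers were apart, at 81.9 to 87.0 against 92.1 to 116 CPM. Fibroblast markers overlapped, at 5279 to 6169 against 3800 to 5655 CPM, with 6 of 6 below 0, and Lum, a matrix proteoglycan, fell by 1.41 ± 0.17 (edgeR adjusted p = 0.0117). The part of these in the chemokine values was not tested.

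After subcutaneous RTX edgeR called 0% of 17363 genes and so none of the 9, although 18.2% of all genes had an unadjusted p under 0.05. DESeq2 called 744 genes, Ccl22 and Ccl6 among them, and voom called 0. Values were above 0 for 7 of the 9 (49.2% of all genes), with a median of 0.20 against −0.0045 over all genes. Groups did not overlap, higher with RTX, for 3 of the 9 (20.5% of all genes): Ccl22, Ccl9 and Ccl6. The same 3 had an unadjusted p under 0.05 (8.97% of all genes in this direction).

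Ccl22 was at 113 and 129 CPM with saline and at 186, 224 and 166 CPM with RTX, 0.65 ± 0.14 (95% interval 0.33 to 0.97; edgeR adjusted p = 0.124). Ccl17 was at 123 and 120 against 102, 128 and 108 CPM, −0.12 ± 0.10 (95% interval −0.35 to 0.11). All RTX libraries were above both saline libraries for Ccl22, while for Ccl17 they lay on both sides. With state as a term the values were 0.80 and 0.16.

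Ccl6 was at 537 and 578 CPM with saline and at 704, 707 and 688 CPM with RTX, 0.31 ± 0.08 (edgeR adjusted p = 0.136). Ccl9 was at 137 and 240 against 306, 275 and 328 CPM, 0.67 ± 0.24 (edgeR adjusted p = 0.245). For both genes the 3 RTX libraries were the highest of all 14. Saline library 1 held less Ccl9 than each intrathecal RTX library.

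The eotaxins did not separate. Ccl24 was at 142 and 387 CPM with saline and at 452, 418 and 323 CPM with RTX, 0.57 ± 0.49 (95% interval −0.79 to 1.93). Saline library 2 lay within the range of the RTX libraries. Ccl11 was at 147 and 198 against 181, 182 and 162 CPM, 0.01 ± 0.13 (95% interval −0.30 to 0.31).

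Without saline library 2, which leaves saline library 1 alone and assumes that it varies like the RTX group, 871 genes were called. Ccl24 was then called at 1.47 (edgeR adjusted p = 0.0272) and Ccl9 at 1.13 (edgeR adjusted p = 0.0116). Without saline library 1 Ccl24 was at 0.02.

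The monocyte attractants and Ccl8 overlapped. Ccl8 was at 41.9 and 53.9 against 46.3, 53.6 and 66.9 CPM, 0.20 ± 0.18 (edgeR adjusted p = 0.585). Ccl7 was at 34.8 and 38.0 against 34.9, 30.0 and 27.3 CPM, −0.26 ± 0.11 (edgeR adjusted p = 0.284). Ccl2 was at 23.4 and 19.8 against 25.1, 21.2 and 22.8 CPM, 0.08 ± 0.12 (95% interval −0.20 to 0.35). The intervals of Ccl7 (−0.52 to 0.01) and of Ccl2 stayed within 2-fold.

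In the receptor list 0 of 9 passed with edgeR and 3 were higher at an unadjusted p under 0.05. Ccr3, the eotaxin receptor, was at 6.81 and 15.3 CPM with saline and at 26.5, 20.4 and 25.6 CPM with RTX, 1.12 ± 0.34 (edgeR adjusted p = 0.191, DESeq2 adjusted p = 0.00973). Its groups were apart, and it is also 1 of the eosinophil markers below. Of the other CC genes 0 of 10 passed, and Ccl4, an attractant of T cells and macrophages, was at 1.53 and 1.24 CPM against 3.34, 4.40 and 4.31 CPM, 1.52 ± 0.27 (edgeR adjusted p = 0.101, DESeq2 adjusted p = 0.00189). In the type 2, STAT6, NF-kB and CXC lists 0 passed, with 2 of 10, 2 of 8, 2 of 8 and 4 of 10 at an unadjusted p under 0.05. DESeq2 also called Il13ra2 at 1.17 and Cxcl13 at 0.93.

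Eosinophil markers summed to 232 to 302 CPM with saline and 348 to 389 CPM with RTX. Groups were apart for 7 of 8 of these markers, and none passed. Alveolar macrophage markers summed to 3456 to 4080 against 4401 to 5341 CPM, but 3 of the 6 tested were above 0 and 3 below, with a median of −0.19. Markers of group 2 innate lymphoid cells summed to 149 to 188 against 195 to 223 CPM and those of neutrophils to 88.4 to 144 against 169 to 228 CPM. Lung markers were lower, at 17039 to 23736 against 11309 to 13094 CPM, with 6 of 6 below 0 and none passing. Conventional dendritic cell markers overlapped, at 218 to 230 against 218 to 229 CPM. So did those of monocytes and interstitial macrophages, at 818 to 1143 against 1108 to 1236 CPM with 7 of 9 above 0. Fibroblast markers overlapped, at 3160 to 4488 against 4440 to 6493 CPM with 5 of 6 above 0. T cell markers did so at 52.9 to 76.8 against 68.7 to 78.6 CPM. Heart muscle markers were at 111 to 387 against 123 to 164 CPM, with 6 of 6 below 0. Basophil and mast cell markers were at 67.1 to 67.2 against 71.9 to 76.1 CPM. The part of these in the Ccl22, Ccl9 and Ccl6 values was not tested.

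**Figure D2:**
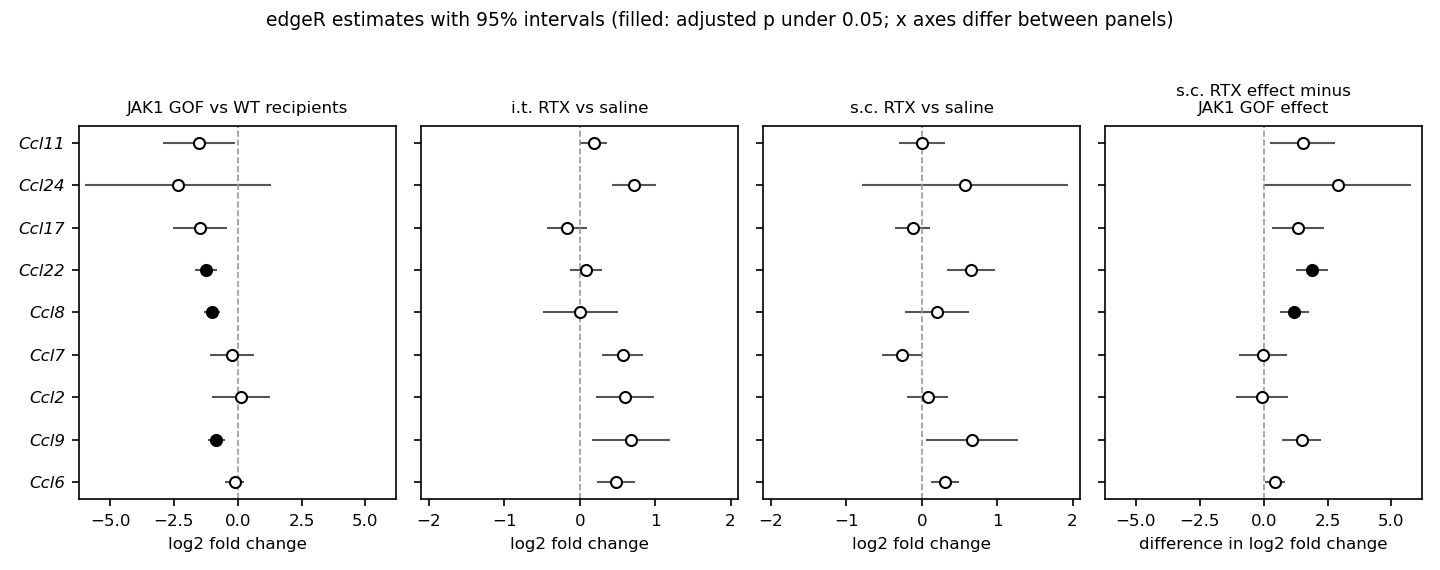
Log2 fold changes of the 9 genes with 95% intervals in the 3 comparisons, and at right the difference between the effects of subcutaneous RTX and of the GOF recipient; filled points have an adjusted p under 0.05. Ccl22, Ccl8 and Ccl9 are filled at left and Ccl22 and Ccl8 at right, while no point of either RTX panel is filled.

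Routes of RTX were compared as a difference of effects, subcutaneous minus intrathecal, in 1 fit of 10 libraries. None of the 9 genes passed with edgeR, where 0.0556% of all genes were called and 15.2% had an unadjusted p under 0.05; 3 of the 9 had one. Ccl7 was at −0.82 ± 0.18 (edgeR adjusted p = 0.118), its values being 0.57 by the intrathecal and −0.26 by the subcutaneous route. DESeq2 called Ccl7 in this contrast, where it called 317 of 17972 genes against 10 with edgeR. Without subcutaneous RTX library 1 edgeR called Ccl7 as well (adjusted p = 0.0436), among 90 genes. Ccl22 was at 0.58 ± 0.18 (edgeR adjusted p = 0.207) and Ccl2 at −0.51 ± 0.22 (edgeR adjusted p = 0.312). For Ccl9 the difference was −0.0018 ± 0.36 (95% interval −0.84 to 0.83), too wide to say that the routes acted alike. With state as a term Ccl7 was at 0.36 and Ccl2 at 0.98.

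The effect of subcutaneous RTX minus that of the GOF recipient was tested in 1 fit of 9 libraries, with no library common to both effects. Of the 9 genes 2 were called (2.87% of all genes), both with a higher difference (1.78% of all genes): Ccl22 at 1.90 ± 0.28 and Ccl8 at 1.20 ± 0.25 (edgeR adjusted p = 0.0205 and 0.045). An unadjusted p under 0.05 was reached by 7 of the 9 (11.4% of all genes in this direction). Ccl9 was at 1.49 ± 0.34 (edgeR adjusted p = 0.0559), Ccl24 at 2.90 ± 1.16 (edgeR adjusted p = 0.221), Ccl11 at 1.52 ± 0.53 (edgeR adjusted p = 0.166), Ccl17 at 1.35 ± 0.44 (edgeR adjusted p = 0.138) and Ccl6 at 0.43 ± 0.18 (edgeR adjusted p = 0.182). Ccl7 was at −0.02 (95% interval −0.98 to 0.93) and Ccl2 at −0.05 (95% interval −1.07 to 0.97).

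The Ccl22 difference was not called without GOF recipient 1, GOF recipient 2 or subcutaneous saline library 1 (adjusted p up to 0.102). The Ccl8 difference ended in 9 of 17 alternatives, 6 of them with a library left out (adjusted p up to 0.244). In the same contrast Ccr2, Il1rl1, Chil3 and Tnfaip3 were called, at 1.33, 1.91, 2.32 and 0.66, and Ccl4 and Cxcl13 were at 2.28 and 2.17 (edgeR adjusted p = 0.0681 and 0.0675).

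Ratios within a library do not depend on its scaling. The count ratio of Ccl22 to Ccl17 was 1.20 and 1.21 with intrathecal saline and 1.56, 1.32 and 1.46 with intrathecal RTX. With subcutaneous saline it was 0.912 and 1.08, and with subcutaneous RTX 1.82, 1.75 and 1.53. In both experiments every RTX library lay above both saline libraries, by 0.26 and 0.77 on the log2 scale. In WT recipients it was 2.48 and 1.78 and in GOF recipients 2.14 and 2.68, with overlap.

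The ratio of Ccl24 to Ccl11 was 1.12 and 1.42 with intrathecal saline and 2.14, 1.83 and 1.58 with RTX. It was 0.966 and 1.96 with subcutaneous saline and 2.50, 2.30 and 2.00 with RTX. In both experiments the groups were apart, narrowly in the subcutaneous one, by 0.54 and 0.71 on the log2 scale. In the 4 transplanted libraries it was 0.383 to 0.911, under 1 in each.

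The ratio of Ccl6 to Ccl9 was 3.96 and 3.29 in WT and 6.34 and 5.31 in GOF recipients, with no overlap. It overlapped in both RTX experiments, with log2 differences of −0.18 by the intrathecal and −0.41 by the subcutaneous route. The ratio of Ccl7 to Ccl2 was 0.718 and 0.682 in WT against 0.575 and 0.504 in GOF recipients, and 1.49 and 1.92 with subcutaneous saline against 1.39, 1.42 and 1.20 with RTX. Both pairs of groups were apart, by −0.38 and −0.34, while the intrathecal groups overlapped (−0.017). Among the 12 ratio comparisons made, an exact two-sided permutation test could not go below 0.2 with 3 libraries against 2 or 0.333 with 2 against 2, so none could pass.

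**Figure D3:**
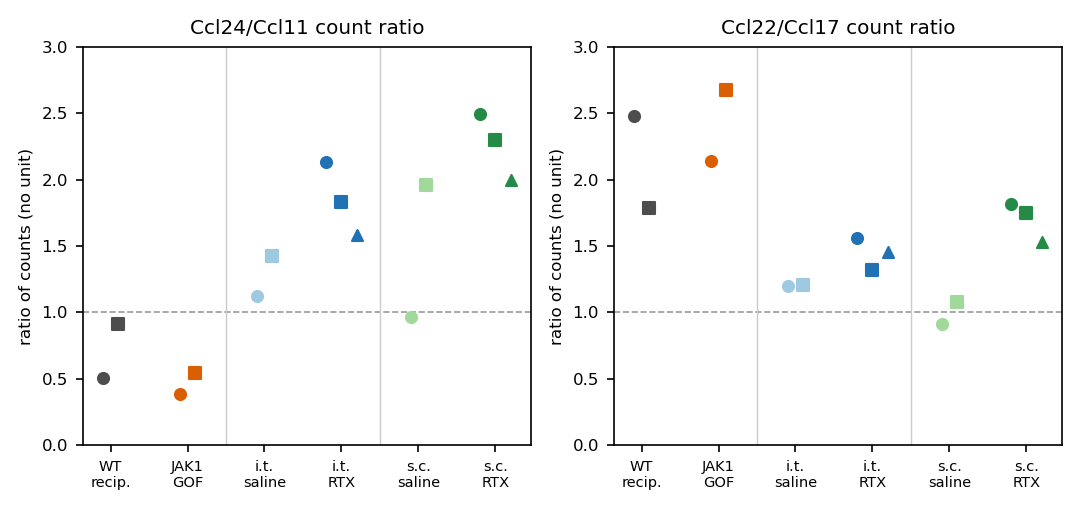
Ratio of estimated counts of Ccl24 to Ccl11 (left) and of Ccl22 to Ccl17 (right) in each library, by group; circle, square and triangle are replicates 1, 2 and 3 and the dashed line marks 1. In both panels all RTX libraries lie above both saline libraries of their experiment.

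Genes most like a chemokine were sought by Pearson's r of log2(CPM + 1) less the experiment mean over 14 libraries. These values describe libraries that share treatment, state and depth. Ccl24 was closely matched by Tarm1 (r = 0.987) and Gatm (0.956). Over the 10 libraries without a transplant r was 0.971 and 0.925, so the likeness of these genes did not rest on the transplanted libraries. Ccl11 was most like Mgl2 (0.963), Cd209e (0.963) and Slc26a4 (0.930), with 0.114, 0.540 and 0.501 over the 10 libraries. Ccl17 was most like Jaml (0.965), Mgl2 (0.953) and H2-DMa (0.948), with 0.803, 0.411 and 0.500. Ccl8 was most like Apol7c (0.934), Nlrp1b (0.923) and H2-Q7 (0.896), with 0.848, 0.777 and 0.752.

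Among the chemokines themselves, Ccl11 and Ccl24 had r = 0.891 over 14 libraries and 0.818 over 10. Ccl9 and Ccl6, neighbours on chromosome 11, had 0.817 and 0.896, and Ccl7 and Ccl2, also neighbours, 0.831 and 0.755. Ccl8, in the same stretch of the chromosome as Ccl7 and Ccl2, had 0.169 with Ccl7 and −0.05 with Ccl2. The CCR4 ligands had 0.791 over 14 libraries and 0.04 over 10. Ccl17 stood apart in the 10 libraries: its r with the 7 genes other than Ccl22 ran from −0.69 with Ccl9 to −0.36 with Ccl11.

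**Figure D4:**
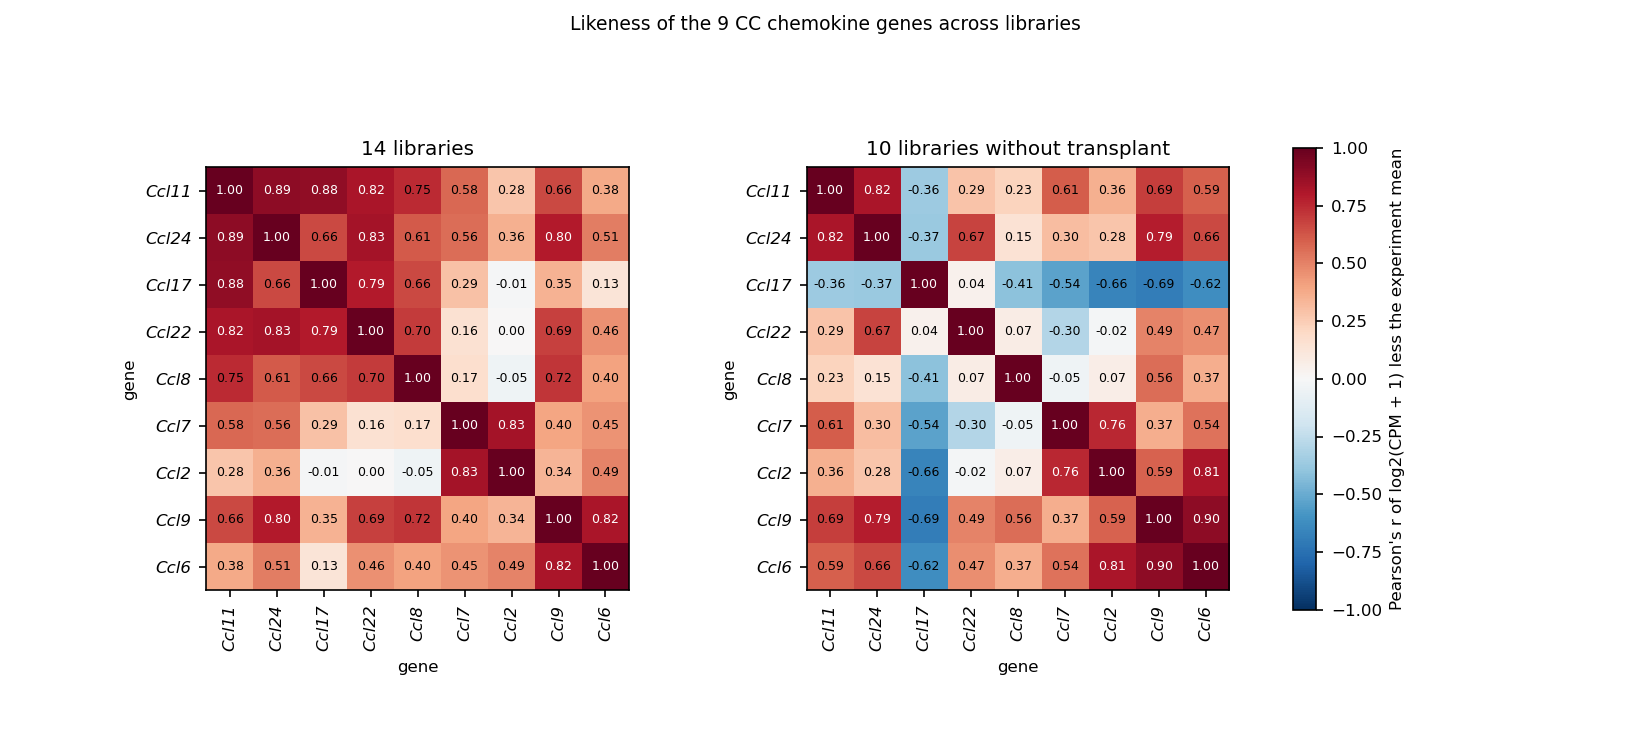
Pearson's r between the 9 chemokine genes, from log2(CPM + 1) less the experiment mean, over all 14 libraries (left) and the 10 without a transplant (right). Ccl17 is red against most genes at left and blue against 7 of them at right.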

How the data were processed

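RNA sequencing of 14 mouse lung libraries gave 3 tables, 1 per experiment. Per the labels, oligo-dT beads enriched mRNA and the kit was NEBNext Ultra II. The submitters' processing notes name FastQC 0.11.8, Trim Galore 0.6.6, STAR 2.7.5b, Salmon 1.2.1 and the build GRCm38. Neither annotation release nor strand setting was stated there. The deposited values are the authors' estimated counts per gene from Salmon, and 24.2% of them were not whole. They were rounded before testing, and CPM used each column's total. Positions and exon lengths came from GENCODE M21, where 54094 identifiers were found in any version.

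Tests were robust quasi-likelihood F tests of edgeR 4.0.16 (R 4.3.3), 1 fit per experiment, after filterByExpr (minimum count 10, minimum total 15) and TMM scaling. Benjamini-Hochberg adjustment ran over every gene in a fit, and calls had an adjusted p under 0.05. Differences of effects were contrasts in 1 fit. Standard errors were the fold change over the square root of F. Replicates of a group differed by more than sampling noise (chi-square over its degrees of freedom 8.91 to 21.3), so each library counted as 1 sample. The procedure was tested on simulated counts. Floors of 3 counts cover counting error only, since PCR reads are not independent molecules.

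The 9 genes and all lists were chosen with earlier results of these data known. Named were all 9 in each comparison; in each other list at most 3 called genes or else the gene of smallest p; and the 3 genes most like Ccl11, Ccl24, Ccl17 and Ccl8 among genes with a mean of at least 2 CPM and no predicted-gene or clone name. Ccr3, the eotaxin receptor, Xist and the genes DESeq2 called were added after their values were seen, and 1 gene that the rule named is not reported here. Other settings tried were DESeq2 1.42.0, limma voom (limma 3.58.1), scaling by DESeq2 size factors or by totals, no low-count filter, 1 fit of all 14 libraries with or without library state, a replicate block, a threshold of 0.1, leaving out each library, and TMM-scaled levels.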

Additional observations from a re-analysis of the deposited data

Results flagged for a closer look

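A test of the difference between the effects of subcutaneous RTX and of the GOF recipient called 2 of the 9 chemokine genes (2.87% of all genes). The call was lost in 3 of 17 alternatives for Ccl22 and in 9 of 17 for Ccl8. For Ccl22 the difference of log2 fold changes was 1.90 (95% interval 1.27 to 2.53), from 0.65 with subcutaneous RTX and −1.26 in GOF recipients, with all 3 RTX libraries above both saline libraries and both GOF below both WT recipients. For Ccl8 the difference was 1.20 (95% interval 0.63 to 1.77), from 0.20 with subcutaneous RTX, where the libraries overlapped, while in GOF recipients it fell by 1.00. The edgeR adjusted p was 0.0205 and 0.045 over 18074 genes, and ranged from 3.34e-27 to 0.102 and from 1.12e-09 to 0.244 over the 17 alternatives.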

How the results depend on the processing

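Over the alternatives for the 9 genes, values kept their direction and their side of the threshold in 83 of 108 cases between recipients, 100 of 117 for intrathecal and 105 of 117 for subcutaneous RTX, 136 of 162 for the difference between routes and 117 of 153 for that between subcutaneous RTX and recipients. Where they did not, the cause was not tested.

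The count of genes called between recipients, 124, was 807 with no filter, 309 with DESeq2, 45 with voom, 50 with all 14 libraries in 1 fit, 286 at an adjusted p of 0.1 and 83 to 919 with 1 library left out. For intrathecal RTX, 54 became 655, 247, 7 (5 with state), 123 and 19 to 40 with no filter, DESeq2, all 14 libraries, an adjusted p of 0.1 and 1 library left out. For subcutaneous RTX, 0 became 807, 744, 71 (184 with state), 62 and 0 to 871 in the same order. For the difference between routes, 10 became 147, 317, 0 (6 with state), 47 and 0 to 90. For subcutaneous RTX against recipients, 519 became 2447, 1395, 1000, 1505 and 1 to 1317, and 268 with voom.

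Signs reversed with state as a term between recipients for Ccl2 (−0.23). With intrathecal RTX they did so for Ccl11 (−0.43), Ccl22 (−0.16), Ccl7 (−0.17), Ccl2 (−0.35), Il33 (−0.19) and Retnla (−0.36), and with subcutaneous RTX for Ccl17 (0.16), Ccl7 (0.19) and Cd209a (0.17). Between routes they did so for Ccl9 (0.069), Ccl24 (1.19), Ccl11 (0.83), Ccl7 (0.36), Ccl2 (0.98) and Cd209a (0.83), and against recipients for Ccl7 (0.72) and Ccl2 (0.86). With total counts alone intrathecal Ccl8 was −0.011, Ccl9 between routes 0.024 and Ccl7 against recipients 0.0016. Between routes Ccl9 was 0.0029 with DESeq2 size factors and with DESeq2, and 0.083 with voom, where Ccl24 was 0.011.

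With 1 library left out the range between recipients was −0.38 to 0.91 for Ccl2, −0.73 to 0.49 for Ccl7 and −0.33 to 0.047 for Ccl6. It was −0.25 to 0.31 for Ccl8 with intrathecal RTX, and −0.20 to 0.24 for Ccl11 and −0.034 to 0.20 for Ccl2 with subcutaneous RTX. Between routes it was −0.69 to 0.76 for Ccl24, −0.11 to 0.45 for Ccl8, −0.36 to 0.46 for Ccl9, −0.040 to 0.19 for Ccl17 and −0.38 to 0.057 for Ccl11. Against recipients it was −0.75 to 0.47 for Ccl7 and −0.83 to 0.46 for Ccl2.

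Deviations of libraries with the same replicate number correlated at 0.00062 between recipients. They did so at −0.296 and −0.215 in the intrathecal and −0.134 and −0.115 in the subcutaneous experiment. With 2 control libraries the deviations of the controls mirror each other, so these values cannot exclude pairing. With the replicate block 123, 50, 0, 7 and 43 genes were called in the 5 comparisons, in the order above. Under the block intrathecal Ccl8 was −0.13, and between routes Ccl9 was 0.23, Ccl24 0.091 and Ccl17 −0.0071. TMM scaling moved 1 of 54 group means by more than 1 SD, and the largest change of any mean was 2.62%. The order of group means changed with it for Ccl8 and Ccl6 and for no other member.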

Other observations

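Summed over the 9 genes, chemokine transcripts made up 614 to 772 CPM in WT recipients, 465 to 576 in GOF recipients, 996 to 1016 with intrathecal saline, 1284 to 1464 with intrathecal RTX, 1299 to 1764 with subcutaneous saline and 1891 to 2038 with subcutaneous RTX. No ranges of this sum overlapped between a treated group and its own control. The share of other sums of 9 genes placed this way is not given here, and shares of single genes are an unlike measure. Of all single genes, 23.0% were apart and lower in GOF recipients. With RTX, 13.5% were apart and higher by the intrathecal and 20.5% by the subcutaneous route. Ccl6 was the largest part of the sum in each group, with means from 379 CPM (intrathecal saline) to 700 CPM (subcutaneous RTX). Between recipients the ranges of Ccl6, Ccl7 and Ccl2 overlapped, and after intrathecal RTX those of Ccl17, Ccl22 and Ccl8 overlapped those of saline. After subcutaneous RTX the ranges of Ccl11, Ccl24, Ccl17, Ccl8, Ccl7 and Ccl2 overlapped those of saline. Ccl26, the remaining eotaxin gene, had 0 counts in all 14 libraries, which allows up to 0.123 to 0.165 CPM.

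Ccr3, the eotaxin receptor, followed the eotaxins in only some comparisons. GOF recipients held 1.07 and 2.75 CPM of Ccr3, below the 4.62 and 10.4 CPM of WT recipients, as for both eotaxins. Saline libraries held 10.5 and 12.6 CPM in the intrathecal and 6.81 and 15.3 CPM in the subcutaneous experiment. Of these, only the subcutaneous library at 6.81 CPM lay within the range of WT recipients. The others lay above that range, the intrathecal library at 10.5 CPM narrowly. For Ccl24 and Ccl11 all saline libraries lay above WT recipients. Subcutaneous RTX libraries were apart from saline for Ccr3 and not for the eotaxins. Intrathecal RTX libraries held 17.9, 10.3 and 7.83 CPM of Ccr3. After intrathecal RTX Ccl24 was higher in all 3 libraries than in both saline libraries, while Ccr3 lay on both sides of them.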
